A study of Mus musculus with 4 samples.

Results

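Among the RNAs measured in mouse erythroleukemia (MEL) cells were 990 short stretches of the genome to which the deposited table gives no gene symbol. These loci span under 400 bp each and carried at least 1 FPKM (fragments scaled to locus length and library size) in at least 2 of the 4 samples. They were drawn from 47935 loci in the whole table, of which 4125 have no symbol and 1034 of those span under 400 bp; 44 of these 1034 lay below the level filter. MEL cells are an established line of virus-transformed erythroid precursors that make hemoglobin when treated with dimethyl sulfoxide (DMSO). The study compared uninduced cells with cells given 1.5% DMSO, with 2 samples in each group, by RNA sequencing after removal of ribosomal RNA. No allele, clone or length of treatment is given in the labels, and they do not say whether the samples of a group came from separate cultures, so each p-value measures only the spread between these samples. The members were selected on their measured FPKM as well as on span, so that the level filter used the same values that are compared below. At the span limit the longest members reached 397 and 398 bp and the next tested loci without a symbol 400 and 401 bp. At the level limit the second-highest value was 1 to 1.03 FPKM in the 3 members nearest to it and 0.95 to 0.99 FPKM in the 3 loci just left out.

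Short RNAs without a symbol can have several origins, described here as background. RNA polymerase III transcribes transfer RNA (tRNA) genes from promoter elements inside the gene, the A and B boxes, and its primary transcripts run past the end of the mature tRNA. Processed pseudogenes are copies of messenger RNAs that were inserted back into the genome, and their sequence can be nearly the same as that of the parent gene. Active promoters and enhancers also give rise to short, unstable transcripts outside the annotated genes.

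The members fell into these kinds unevenly. When placed on the GENCODE M21 annotation of the mouse build GRCm38, 916 lay outside every annotated gene, 42 in introns, and 32 overlapped an exon. Of the exon loci, 19 lay in processed pseudogenes. Of the 916, 45 overlap a tRNA gene of the RefSeq table, and over all members 93 overlap a long noncoding RNA of RefSeq. Sequence could be read only where a member overlaps a GENCODE transcript or a RefSeq window around a gene start, since no genome was used here. The first sequence shows what a tRNA locus holds. It is the part of locus XLOC_003258 that falls in the RefSeq window of Gm35090 (GRCm38.p6, chr1:171033969-171034018, minus strand), and its capitals mark the A box at tRNA positions 8 to 19 and the anticodon of this asparagine tRNA gene, n-TNgtt6, at positions 35 to 37.
XLOC_003258: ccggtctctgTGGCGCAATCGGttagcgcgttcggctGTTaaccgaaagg
An A box was taken as the letters TGGCNNANNNGG on either strand, which 5.38% of all 32851 RefSeq windows of 300 bases hold. The same letters stand, on the opposite strand, in the bases of locus XLOC_042860 that lie before the start of Zpr1 (GRCm38.p6, chr9:46272814-46273029, plus strand), a zinc finger protein gene. They are the capitals here. XLOC_042860 was the 1 locus with the box among 9 with at least 30 bases before a gene start. The bases around the capitals closely resemble the piece of 1600020E01Rik at XLOC_035406, which matched transcripts of 194 other genes. The letters may therefore not be particular to this gene start, and repeats were not searched for.
XLOC_042860: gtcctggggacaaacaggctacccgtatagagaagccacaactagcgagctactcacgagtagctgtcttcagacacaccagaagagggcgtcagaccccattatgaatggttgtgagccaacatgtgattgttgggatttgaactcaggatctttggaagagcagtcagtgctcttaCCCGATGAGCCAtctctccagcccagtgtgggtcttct
That locus was listed at 45.4 and 72.6 FPKM in the uninduced and at 39.6 and 47.9 FPKM in the induced samples, and the groups overlapped.

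The next sequences show how close the pseudogene loci are to their parent genes. Each is the part of the locus inside the pseudogene's GENCODE transcript, in that transcript's direction, and it is shown because the values below turn on it. Capitals mark the bases that differ from the best match in the coding sequence of another gene. The first 3 match Phgdh, phosphoglycerate dehydrogenase, the enzyme that opens serine synthesis: a piece of Gm8341 (chr15:19456075-19456243, minus strand) and both pieces of Gm9347 (chr7:136811910-136812169 and chr7:136812341-136812515, plus strand).
XLOC_014521: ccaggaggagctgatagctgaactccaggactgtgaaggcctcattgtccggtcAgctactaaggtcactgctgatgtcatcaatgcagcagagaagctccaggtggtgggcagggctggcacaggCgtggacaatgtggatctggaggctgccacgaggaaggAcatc
XLOC_037422: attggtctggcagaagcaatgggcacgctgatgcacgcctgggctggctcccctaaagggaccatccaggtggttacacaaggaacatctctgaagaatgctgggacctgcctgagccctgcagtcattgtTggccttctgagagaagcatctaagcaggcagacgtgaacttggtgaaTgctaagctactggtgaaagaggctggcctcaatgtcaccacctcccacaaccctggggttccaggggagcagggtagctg
XLOC_037423: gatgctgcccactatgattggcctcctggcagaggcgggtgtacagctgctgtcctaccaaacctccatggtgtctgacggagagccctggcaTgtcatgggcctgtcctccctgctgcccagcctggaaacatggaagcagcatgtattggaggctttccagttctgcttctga
These carry 3, 2 and 1 differing bases, and the aligned identity was 98.2%, 99.2% and 99.4%. The next lies in Nudc-ps1 (chr8:29286431-29286544, minus strand) and has no base that differs from Nudc, which encodes a nuclear distribution protein of the dynein pathway.
XLOC_040699: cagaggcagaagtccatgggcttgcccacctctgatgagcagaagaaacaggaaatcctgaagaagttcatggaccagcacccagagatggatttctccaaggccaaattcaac
The last pair holds pieces of ribosomal protein copies at the most abundant loci: Gm6988 (chr12:110315990-110316098, plus strand), with 1 base different from Rps25, and Gm6278 (chr16:85644537-85644697, plus strand), with 2 different from Rplp0.
XLOC_009250: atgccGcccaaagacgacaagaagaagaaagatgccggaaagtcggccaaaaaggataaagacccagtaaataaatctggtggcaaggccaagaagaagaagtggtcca
XLOC_015714: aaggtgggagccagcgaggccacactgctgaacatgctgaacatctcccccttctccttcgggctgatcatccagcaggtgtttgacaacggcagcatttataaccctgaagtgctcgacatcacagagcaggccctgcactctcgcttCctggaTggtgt
Over all 19 pseudogene loci the best match of the piece inside the pseudogene was 97.6% to 100% identical. That piece was 39.3% of the locus at XLOC_041201 and XLOC_040383, 44.2% at XLOC_040699 and 68.1% at XLOC_009250. It was the whole locus at XLOC_014521, XLOC_037422 and XLOC_015714, among others. How fragments matching several places were assigned is not given in the sources used here, so the level of a locus with such a copy is uncertain.

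The cells carried the markers of their label. Of 12 erythroid markers, 10 were matched alone in the table and 9 of them rose after induction; their summed level was 1340 and 1597 FPKM in the uninduced and 59520 and 113589 FPKM in the induced samples. The mast cell, lymphoid and fibroblast markers stayed below 1 FPKM throughout, as did 5 of 6 myeloid markers. Both matched megakaryocyte markers were above 1 FPKM and neither passed the test. The table holds no counts, so the sequencing depth is unknown. The lowest values above 0 among all loci spanning 380 to under 400 bp were 0.21 and 0.17 FPKM in the uninduced and 0.28 and 0.26 FPKM in the induced samples. At these spans the smallest value listed was larger in both induced samples than in both uninduced ones.

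The members' level went with their span. They ran from 151 to 398 bp, with a median of 238.5 bp. Loci under 200 bp had a median uninduced mean of 116 FPKM (306 loci), those from 200 to under 300 bp 17.0 FPKM (426 loci), and those from 300 to under 400 bp 4.41 FPKM (258 loci). The smallest value above 0 moved in the same direction: among all loci spanning 160 to under 170 bp it was 32.4, 59.9, 38.4 and 25.5 FPKM in uninduced 1, uninduced 2, induced 1 and induced 2. At the very short end some values stood in whole-number ratios (within 0.005). At 154 bp, the members were listed at 373 and 1118 FPKM in induced 2, a ratio of 3, and both at 1601 FPKM in induced 1. At 155 bp, they were at 767 and 1534 FPKM in induced 1, a ratio of 2. Not all ratios were whole: the same pair at 154 bp stood at 1.3 in uninduced 1.

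**Figure D1:**
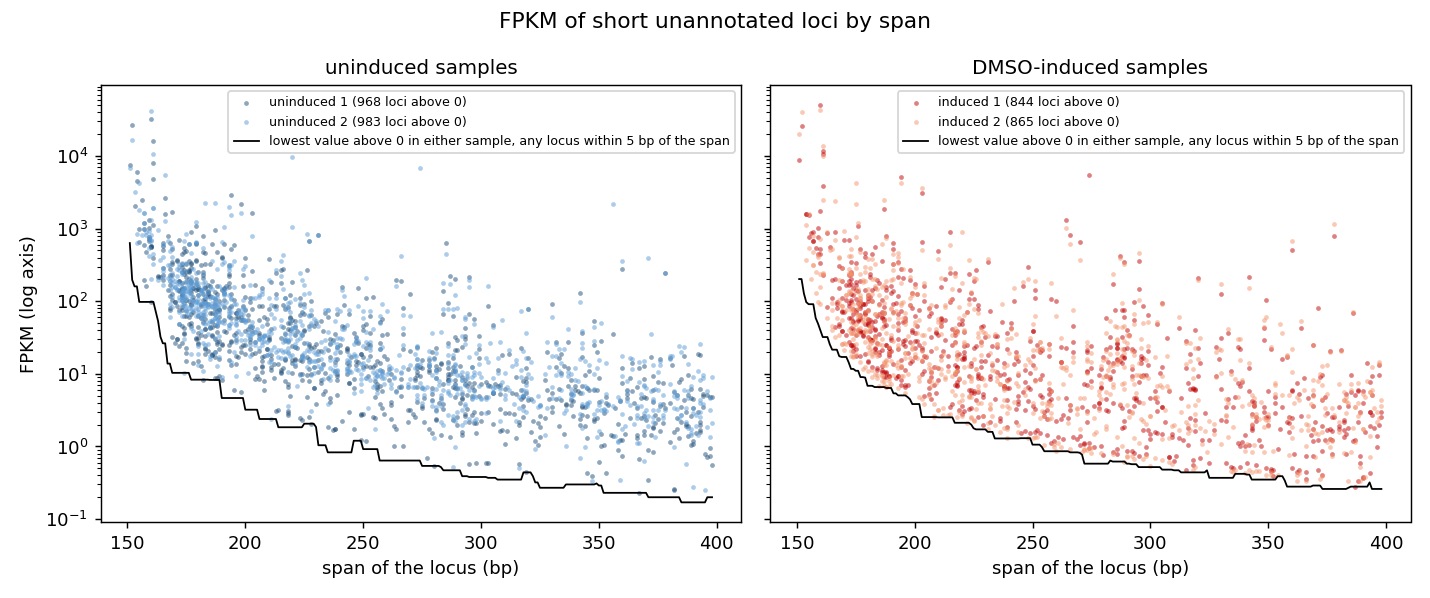
FPKM of each short unannotated locus (log axis) against its span in bp, for the 2 uninduced samples on the left and the 2 DMSO-induced samples on the right; each point is 1 locus in 1 sample, loci listed at 0 are not drawn, and the black line is the lowest value above 0 in either sample among all loci within 5 bp of the span. The line falls steeply with span, to 0.17 FPKM near 400 bp in the uninduced samples, and more loci are above 0 in uninduced 1 and 2 (968 and 983) than in induced 1 and 2 (844 and 865).

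With the possible failed estimates set aside, the 6 most abundant members spanned 151 to 161 bp. XLOC_009250, the locus in Gm6988, was listed at 32440 and 41210 FPKM in the uninduced and 50717 and 42508 FPKM in the induced samples. Its induced values lay above both uninduced ones, but the difference did not pass the test (log2 change 0.34, SE 0.58, limma adjusted p = 0.675). XLOC_013973 (chr15:56177607-56177758), outside genes, stood at 26758 and 16547 FPKM in the uninduced and 25890 and 39990 FPKM in the induced samples, and the groups overlapped. XLOC_015714 and XLOC_016361 have the same coordinates in Gm6278; the former had 16075 and 10612 FPKM uninduced and 10628 and 13709 FPKM induced. The latter had 7897 and 1923 FPKM uninduced and 3839 and 2479 FPKM induced, and in neither were the groups apart. XLOC_013662 (chr14:79796422-79796572) had 7563 and 6889 FPKM uninduced against 8768 and 20410 FPKM induced. XLOC_007023 (chr11:6751598-6751758), far downstream of the receptor activity-modifying protein gene Ramp3, had 4808 and 1898 FPKM uninduced against 11686 and 9913 FPKM induced. In both of these the induced values were the higher, and neither passed the test (limma adjusted p = 0.267 and 0.0636). Together these 6 held 48.2% and 38.4% of the members' summed FPKM in the uninduced and 59.4% and 59.3% in the induced samples. All members together held 18.8% and 15.5% of the summed FPKM of the uninduced samples and 15.1% and 19.8% of the induced ones. The group means, 17.1% ± 2.29 and 17.4% ± 3.32 (SD, n = 2), differed by 0.28 percentage points (exact permutation test, two-sided p = 1; the smallest p this design allows is 0.33). With the 10 most abundant loci of each sample left out of the sums the share was 4.24 points lower after induction.

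After induction the short loci were more often lower than higher. Of the 990 members, 274 (27.7%) were lower and 74 (7.47%) higher after induction at an adjusted p under 0.05 (limma on log2(FPKM + 1), Benjamini-Hochberg over all 12890 loci tested), while 642 were not called. Over all loci tested, 14.7% were called lower and 11.5% higher. The median log2 change of the members was -0.96, against 0.03 over all loci tested. Loci without a symbol that span 400 bp or more had a median of -0.04, with 18.0% of 1108 called in each direction. Loci with a symbol that span under 400 bp had a median of 0.03, with 4 of 63 called in each direction. In bulk RNA, fewer cells with a transcript and less of it per cell cannot be told apart. Both induced values lay below both uninduced ones in 503 members and above them in 164, where 34.7% and 36.1% of all loci tested did so. Leaving out any 1 sample cut the calls, both among the members and over all loci tested. The members' median log2 change was then -1.27 and -0.72 without uninduced 1 and 2, and -0.93 and -0.87 without induced 1 and 2. With no filter on low values, 15 members were called lower and 1 higher, and over all loci 23 were lower and 7 higher.

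**Figure D2:**
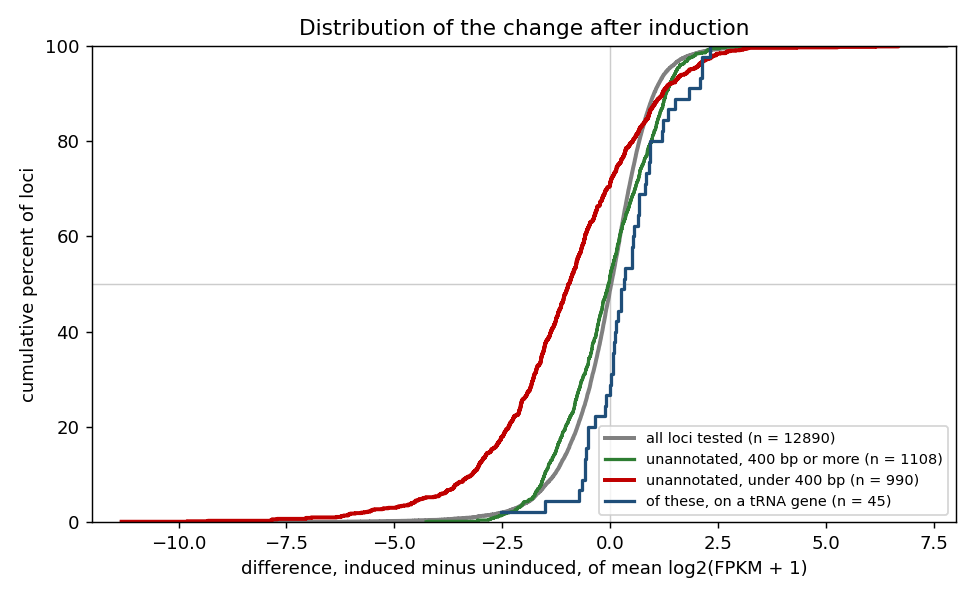
Cumulative percent of loci against the change after induction, the induced minus the uninduced mean of log2(FPKM + 1), for all 12890 loci tested, the 1108 unannotated loci of 400 bp or more, the 990 under 400 bp, and the 45 of these on a tRNA gene. The curve of the short loci crosses 50 percent at -0.96, those of all loci and of the longer unannotated loci at 0.03 and -0.04, and that of the tRNA loci at 0.33.

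Many members were listed at exactly 0 after induction. Members listed at 0 numbered 22 and 7 in the uninduced and 146 and 125 in the induced samples. In the induced samples that is 14.7% and 12.6% of the members, where 1.76% and 1.48% of all loci tested were at 0. There were 55 members at 0 in both induced samples, of which 52 were called lower, and 4 at 0 in both uninduced samples, all called higher; over all loci tested the corresponding shares were 0.605% and 0.0698%. A further limit is the level filter: 103 members met it through the uninduced samples alone and 9 through the induced samples alone, and those could only differ. Among the 756 members above 0 in every sample, 171 (22.6%) were lower and 67 (8.86%) higher, with a median of -0.60. Of the 12473 tested loci above 0 in every sample, 13.7% were lower and 11.5% higher, with a median of 0.04. The 756 still include 18 members that met the filter through the uninduced samples alone and 4 through the induced samples alone. The smallest value listed was larger in the induced samples at spans of 380 to under 400 bp, but at 160 to under 170 bp it was largest in uninduced 2 and smallest in induced 2. Its part in the zeros was not tested.

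Position against annotated genes went with the direction. The classes used here do not overlap, and distances are to the nearest protein-coding gene. Their counts stand beside 14.7% lower and 11.5% higher over all loci tested. Of the 249 members within 5 kb upstream of a gene start, 86 were lower and 4 higher, with a median log2 change of -1.25. Of the 90 within 5 kb downstream of a gene end, 30 were lower and 2 higher (median -1.28). Introns held 42, with 13 lower and 3 higher (median -1.41). Between 5 and 100 kb away there were 460, with 129 lower and 40 higher (median -1.01). Through the uninduced samples alone, the level filter was met by 33 upstream, 12 downstream, 5 in introns and 45 at this distance. Those could only be lower. Through the induced samples alone it was met by 1, 0, 1 and 6 in the same order, which could only be higher. Only beyond 100 kb did the median of a distance class lie above 0: of 72 such members, 19 were higher and 10 lower, and the median was 0.78. Of these 72, 7 met the level filter through the uninduced samples alone and 0 through the induced samples alone. The longer unannotated loci beyond 100 kb also had a median above 0, at 0.76, with 34 of 85 higher and 14 lower. Unlike the short loci, they had medians near 0 at 5 to 100 kb (0.01) and within 5 kb downstream (0.15), and -0.34 within 5 kb upstream; the difference was not tested. Loci upstream outnumbered those downstream among all members within 5 kb of a gene, by 265 to 97, and by 317 to 111 among the longer unannotated loci.

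**Figure D3:**
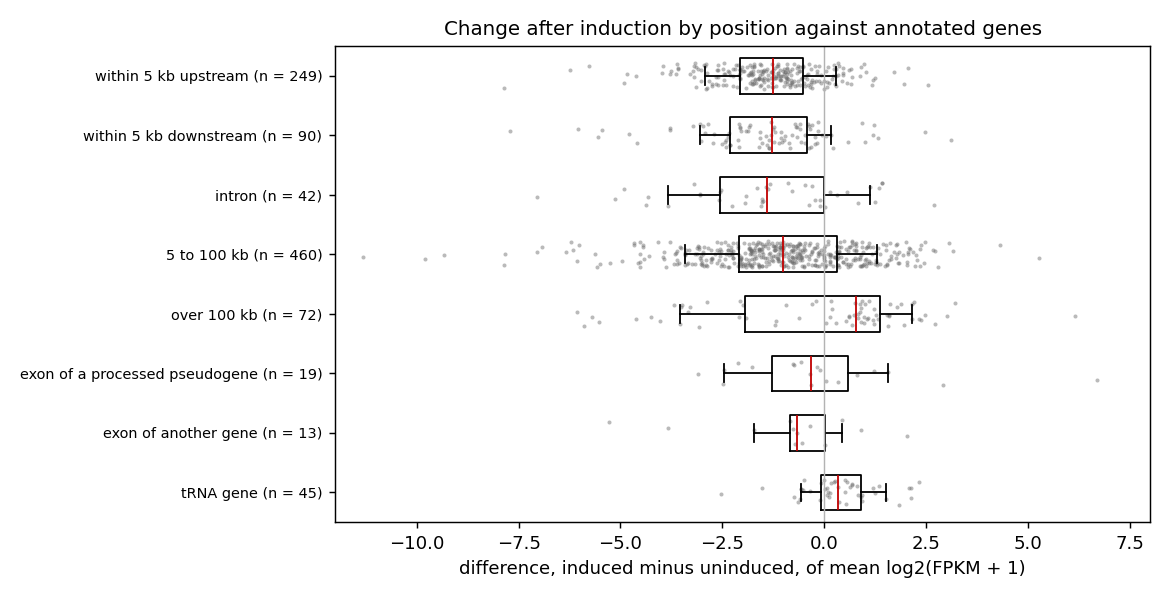
Change after induction (difference of mean log2(FPKM + 1)) of every short unannotated locus, by position against annotated genes; points are loci, boxes span the quartiles with the median in red, and whiskers run from the 10th to the 90th percentile. Medians lie at -1.25 and -1.28 within 5 kb upstream and downstream, and at 0.78 beyond 100 kb and 0.33 on tRNA genes.

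Members were next set beside their neighbouring and host genes. Among 278 members within 5 kb of a tested protein-coding gene, Pearson's r between the log2 changes was 0.04 and Spearman's rho 0.06, over pairs that share the same 4 libraries. Where the neighbour was called lower, 15 of 43 members were lower and 1 higher. Where it was called higher, 9 of 25 were lower and 1 higher, and where it was not called, 60 of 210 and 4. Of all 278, 84 were lower and 6 higher, beside 14.7% and 11.5% of all loci tested. Of 7 intron members whose host gene was tested alone, 2 were lower, and neither host was called. Zfp36, which encodes the RNA-decay factor tristetraprolin, had 0.91 and 1.02 FPKM in the uninduced and 2.08 and 2.97 FPKM in the induced samples. The short locus in its exon, XLOC_038086 (chr7:28379844-28380135), was at 1.60 and 3.13 FPKM uninduced and listed at 0 in both induced samples (limma adjusted p = 0.0193). Acer3, which encodes an alkaline ceramidase, had 9.02 and 5.86 FPKM uninduced and 9.40 and 9.53 FPKM induced. Its exonic locus XLOC_038971 (chr7:98207066-98207381) went from 0.57 and 0.50 FPKM to 7.49 and 3.56 FPKM (log2 change 2.02, SE 0.34, limma adjusted p = 0.0201). The groups were apart at both loci, but the former met the level filter through the uninduced samples alone and the latter through the induced samples alone, so each could only differ in that direction.

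Loci on tRNA genes formed a class of their own by position. The 45 members cover 45 of the 430 tRNA genes in the RefSeq table, with 26 anticodons for 19 amino acids. In 43 of them the tRNA gene, 72 to 90 bp long, lies within 25 bp of 1 end of the locus. The locus runs on beyond the other end by a median of 177 bp (85 to 309 bp). On chromosome 13, 19 of them fall between 21 and 24 Mb. Their levels differed widely. The locus of the glycine tRNA gene n-TGacc1 (chr11:48823724-48823910) had 972 and 2254 FPKM uninduced and 1868 and 2441 FPKM induced. The locus of the tryptophan tRNA gene n-TWcca1 (chr10:23776903-23777151) had 1.21 and 8.37 FPKM uninduced, 1.53 FPKM in induced 1, and was listed at 0 in induced 2. The groups overlapped at both.

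None of the 45 tRNA loci was called lower, where 14.7% of all loci tested were. Of the 45, 4 (8.89%) were called higher, which is below the 11.5% called higher over all loci tested. Their median log2 change was 0.33. The 20 unannotated loci of 400 bp or more on a tRNA gene had a median of 0.07, with 0 higher and 1 lower. Among the other 945 members 274 (29.0%) were lower and 70 (7.41%) higher, with a median of -1.05. The highest-level of the 4 was n-TTcgt4, a threonine tRNA gene (XLOC_010362, chr13:21322809-21322971), at 214 and 195 FPKM uninduced and 873 and 912 FPKM induced (log2 change 2.12, SE 0.21, limma adjusted p = 0.0113). The serine tRNA gene n-TSaga6 (XLOC_010389, chr13:21927863-21928053) had 55.4 and 86.7 FPKM uninduced and 322 and 273 FPKM induced (log2 change 2.08, SE 0.28, limma adjusted p = 0.0147). The cysteine tRNA gene n-TCgca51 (XLOC_008106, chr11:97798779-97798976) had 19.99 and 54.8 FPKM uninduced and 194 and 112 FPKM induced (log2 change 2.12, SE 0.54, limma adjusted p = 0.0445). The isoleucine tRNA gene n-TIaat11 (XLOC_011192, chr13:21855131-21855445) had 9.05 and 13.8 FPKM uninduced and 28.4 and 26.9 FPKM induced (log2 change 1.24, SE 0.25, limma adjusted p = 0.0280). In all 4 both induced samples lay above both uninduced ones. The asparagine locus whose sequence is printed above had 6.88 and 26.9 FPKM uninduced and 10.1 and 7.03 FPKM induced; its groups overlapped.

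The uninduced samples themselves differed at the tRNA loci, and also at the other members. Of the 45, 33 were higher in uninduced 2 than in uninduced 1, as were 584 of the 945 members without a tRNA gene. The summed FPKM of the 45 was 3462 and 6042 in the uninduced and 8211 and 7487 in the induced samples (exact permutation test, two-sided p = 0.33, the smallest possible). Without uninduced 1 the median log2 change was 0.038 and without uninduced 2 it was 0.77; no tRNA locus was called without uninduced 1, uninduced 2 or induced 2, and 1 was called without induced 1. By amino acid, 7 loci were serine tRNA genes, with a median of 0.80 and 1 called higher. The 4 lysine loci had a median of 0.80, and the 4 tyrosine and 4 alanine loci medians of -0.13 and -0.16, with none called.

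**Figure D4:**
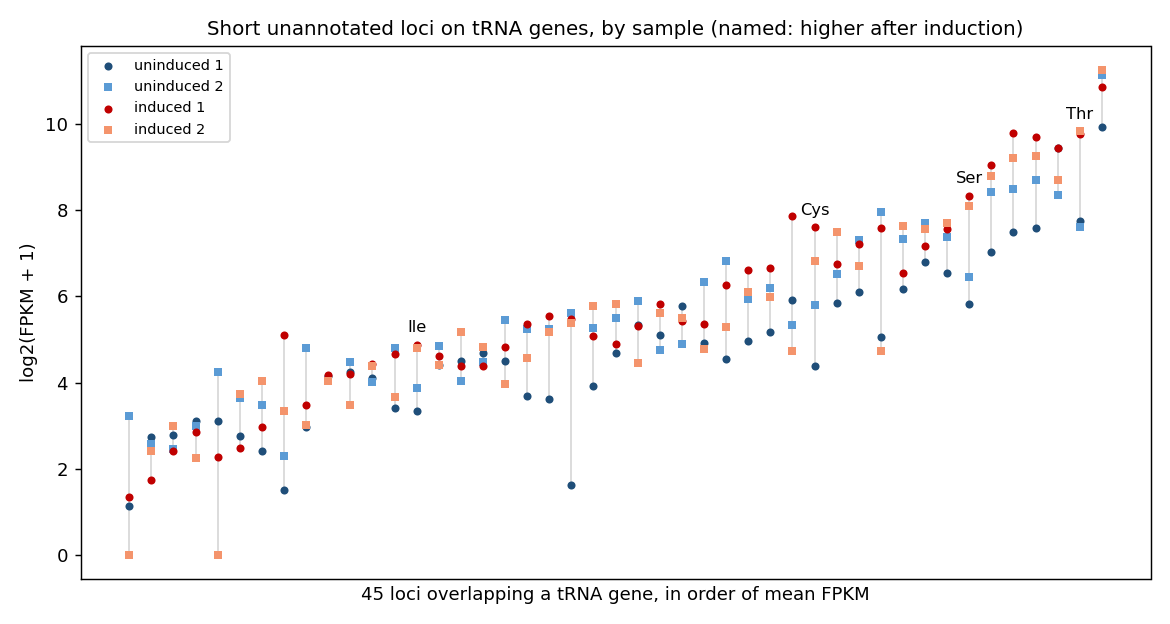
log2(FPKM + 1) of the 45 short unannotated loci on tRNA genes in each sample, in order of mean FPKM; circles are replicate 1 and squares replicate 2, blue uninduced and red or orange induced, and a grey line joins the lowest and highest sample. The 4 loci named by amino acid are those called higher, where both induced points lie above both uninduced ones.

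Other short RNA genes of known function were few in the table. Of 31 such genes with a symbol, 17 were matched alone, 9 were tested and none was called, with a median log2 change of 0.18. Of the 17, 8 were listed below 1 FPKM in every sample. Rn7sk, the RNA that holds the elongation factor P-TEFb inactive, was at 93378, 169437 and 233708 FPKM in uninduced 1, uninduced 2 and induced 1 and listed at 0 in induced 2. A value of 0 can therefore stand beside very high values of the same RNA in the other samples.

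The pseudogene loci could be set beside their parent genes. Of the 19 loci, 4 (21.1%) were called lower and 1 (5.26%) higher, beside 14.7% and 11.5% of all loci tested, and of the 18 whose parent had its own row, 12 had a log2 change of the parent's sign. The 19 loci lie in 16 pseudogenes with 15 parents, so these signs are not independent. A parent and its pseudogene locus are measured in the same libraries and may share fragments. Phgdh itself had 502 and 687 FPKM uninduced and 91.2 and 50.9 FPKM induced (log2 change -3.09, SE 0.35, limma adjusted p = 0.0128). The locus in Gm8341 went from 326 and 179 FPKM to 71.2 and 25.5 FPKM (log2 change -2.47, SE 0.56, limma adjusted p = 0.0342). The first locus in Gm9347, XLOC_037422, went from 15.9 and 10.0 FPKM to 2.21 and 0.86 FPKM (log2 change -2.48, SE 0.37, limma adjusted p = 0.0170). The second, XLOC_037423, went from 677 in both uninduced samples to 88.3 and 69.6 FPKM (log2 change -3.09, SE 0.22, limma adjusted p = 0.00670). All 3 Phgdh-like loci thus fell with non-overlapping groups, although the levels of the pair in Gm9347 lay far apart. At Nudc-ps1, XLOC_040699 went from 34.3 and 23.6 FPKM to 5.80 and 5.73 FPKM (log2 change -2.12, SE 0.25, limma adjusted p = 0.0128), while Nudc went from 181 and 141 FPKM to 66.3 and 64.1 FPKM (log2 change -1.28, SE 0.21, limma adjusted p = 0.0193).

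**Figure D5:**
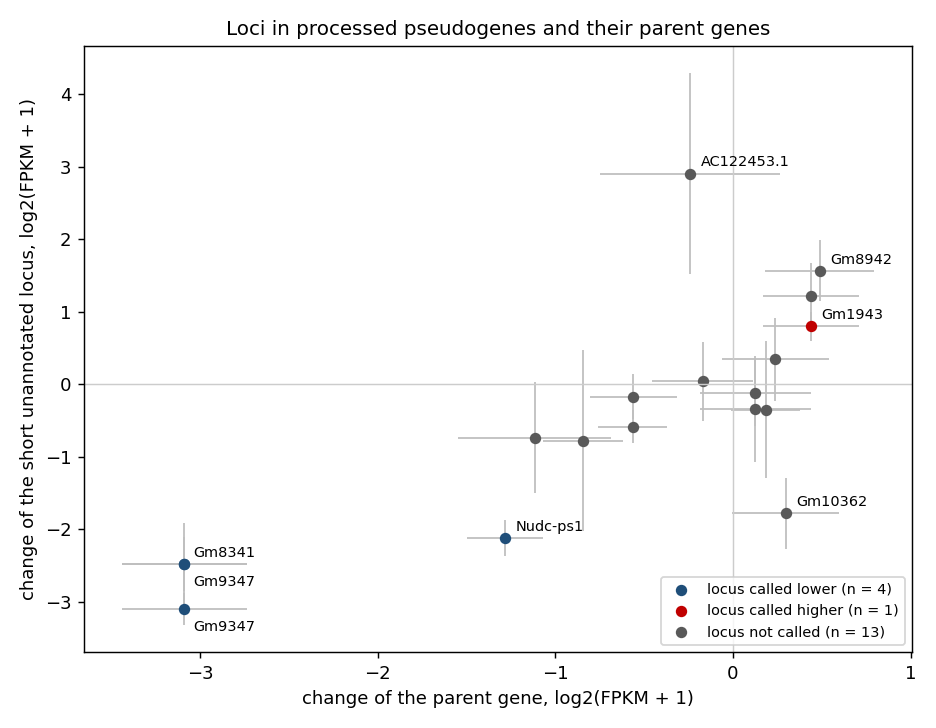
Change after induction (difference of mean log2(FPKM + 1)) of 18 short unannotated loci in processed pseudogenes against that of the parent gene whose coding sequence they match; bars are standard errors from the limma fit, and loci that share a parent share its horizontal position. The 3 loci that match Phgdh lie at -2.47 to -3.09 beside a parent change of -3.09, while Gm10362 and AC122453.1 lie on the other side of 0 from their parents.

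Of the other pseudogene loci, 1 was called. In Gm10362, which matches Rpl17, XLOC_014742 went from 42.4 and 44.4 FPKM to 20.3 and 6.85 FPKM (limma adjusted p = 0.0527), whereas Rpl17 was at 1139 and 1392 FPKM uninduced and 1320 and 1815 FPKM induced. In Gm18860, which matches Cnot8, a deadenylase subunit, XLOC_040918 had 4580, 633, 1601 and 1118 FPKM, beside 35.7, 29.7, 36.4 and 38.0 FPKM of Cnot8 in the same order of samples. In Gm7049, which matches the malic enzyme gene Me1, XLOC_010771 had 479 and 30.3 FPKM uninduced and 66.1 and 75.6 FPKM induced. The spread between its uninduced samples exceeded the difference between groups, as at XLOC_040918. The called one, which was higher, lies in Gm1943, which matches Wdr70: XLOC_041201 (chr8:109340467-109340835) went from 12.7 and 15.2 FPKM to 25.3 and 24.7 FPKM (log2 change 0.80, SE 0.20, limma adjusted p = 0.0416). Its partner at the same coordinates, XLOC_040383, had 2.62 and 0.64 FPKM uninduced and 3.57 and 6.03 FPKM induced, and was not called.

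Of the 13 exonic members outside processed pseudogenes, 2 matched other genes at 90% identity over 80% of the piece, and the other 11 had no match at those limits. The piece of Gm47513 at XLOC_011606 matched transcripts of 485 other genes, and that of 1600020E01Rik at XLOC_035406 matched 194. Neither was called. Among the 11, the pieces at XLOC_017299 and XLOC_033566 hold only 20 and 8 bases, too few for the search to find a match. Some others matched another gene over part of their length. The Zfp36 piece at XLOC_038086 matched Fadd at 93.6% over 53.8%, and the Gm20337 piece at XLOC_009730 matched Trim36 at 93.7% over 53.4%.

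The 8 largest rises all lay outside annotated genes, and 3 of them were listed at 0 in both uninduced samples, so that they met the level filter through the induced samples alone and could only differ upward. XLOC_033572 (chr6:3651635-3651800) was at 43.7 and 32.1 FPKM in the induced samples (limma adjusted p = 0.00271), beside lowest values for loci of about that span of 26.4 and 59.9 FPKM in the uninduced and 34.4 and 21.5 FPKM in the induced samples. The lowest value of uninduced 2 lay above both induced values of the locus. A second locus with the same coordinates, XLOC_034787, was at 1576 and 1273 FPKM uninduced and 904 and 2377 FPKM induced, and was not called. XLOC_014839 (chr15:77654175-77654449) was at 24.2 and 14.8 FPKM induced (limma adjusted p = 0.00601); it lies 1551 bp downstream of Apol10c-ps, a pseudogene of the apolipoprotein L family. XLOC_001159 (chr1:133825909-133826151), 3376 bp upstream of Gm10537 and also upstream of the calcium pump gene Atp2b4, was at 3.27 and 17.6 FPKM induced (limma adjusted p = 0.0326). The nearest gene to XLOC_033572 is Calcr, the calcitonin receptor gene, which was itself listed at 0 in every sample.

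The other 5 were above 0 in at least 1 uninduced sample. XLOC_027222 (chr3:132522732-132522919), 14640 bp downstream of the small nuclear RNA gene Gm25307, went from 160 and 55.1 FPKM to 793 and 736 FPKM (log2 change 3.01, SE 0.52, limma adjusted p = 0.0204). XLOC_013870 (chr15:31382591-31382794), 12285 bp downstream of Gm49300 and upstream of Ankrd33b, went from 8.49 and 27.1 FPKM to 99.97 and 123 FPKM (log2 change 2.78, SE 0.53, limma adjusted p = 0.0243). XLOC_011649 (chr13:68236318-68236675), 53448 bp from AA414992, went from 0.90 and 1.15 FPKM to 16.9 and 18.3 FPKM (log2 change 3.20, SE 0.21, limma adjusted p = 0.00601). Its partner at the same coordinates, XLOC_010816, had 0 and 1.18 FPKM uninduced and 2.18 and 17.5 FPKM induced, and was not called (limma adjusted p = 0.107). XLOC_030454 (chr4:154919475-154919736) lies 2196 bp downstream of Tnfrsf14, which encodes a receptor of the tumor necrosis factor family, and had 4.09 and 0 FPKM uninduced against 23.3 and 14.4 FPKM induced (limma adjusted p = 0.0451). Tnfrsf14 itself rose, from 8.03 and 7.96 FPKM to 18.2 and 14.3 FPKM (log2 change 0.93, limma adjusted p = 0.0361). XLOC_037358 (chr7:127623977-127624259), upstream of the zinc finger gene Zfp629, had 0 and 2.16 FPKM uninduced and 9 and 12.6 FPKM induced (limma adjusted p = 0.0301). With a pseudocount of 0.1 the last pair of loci no longer passed the test.

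Some risen members lay side by side. At chr19:59604676-59604939 and chr19:59606121-59606366, more than 139 kb downstream of Emx2, XLOC_019924 went from 194 and 164 FPKM to 1333 and 1024 FPKM, and XLOC_019926 from 36.5 and 25.6 FPKM to 160 and 187 FPKM (log2 changes 2.71 and 2.46, limma adjusted p = 0.0106 and 0.0113). On chromosome 17, upstream of the vomeronasal receptor gene Vmn2r96, 5 members between 18559451 and 18566789 had log2 changes of 1.79 to 2.35, and 2 of them, XLOC_016601 and XLOC_016606, were called. XLOC_016601 went from 1.95 and 2.81 FPKM to 11.9 and 14.2 FPKM. These stretches were picked after their values were seen. Over the table there were 31 groups of members within 2000 bp of each other at different coordinates, holding 67 members. In 23 of these groups the log2 changes, called or not, all had 1 sign. The median over all members was -0.96, and how many groups of members lying apart would share a sign was not tested.

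A pair of loci with identical coordinates occurred 16 times, making 32 of the members; the table gives no strand. In 15 of the 16 pairs both log2 changes had the same sign. The partner with less signal stood at a median of 21.7% of the other. None of the 32 was called lower and 9 (28.1%) were called higher, beside 14.7% and 11.5% of all loci tested, and their median log2 change was 1.10. Partners share coordinates and are not independent, and 4 calls fell on the partner with less signal. For example, XLOC_000196 (chr1:23302436-23302755) went from 78.7 and 77.9 FPKM to 209 and 197 FPKM (log2 change 1.36, SE 0.18, limma adjusted p = 0.0147), and its partner XLOC_001967 had 16.7 and 10.0 FPKM uninduced and 23.0 and 16.0 FPKM induced. Members from 280 to under 300 bp, a range chosen after the values were seen, included 93 loci, of which 16 were higher and 17 lower. The 21 of them beyond 100 kb from a protein-coding gene had a median log2 change of 1.08, with 7 higher and 2 lower.

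The 8 largest falls were all listed at 0 in both induced samples, so no fold is given, and they met the level filter through the uninduced samples alone. XLOC_018839 on chromosome 18, downstream of the SUMO ligase gene Pias2, had 2058 and 3155 FPKM uninduced (limma adjusted p = 0.000435). For loci of that span the lowest value above 0 was 549 and 128 FPKM in the induced samples. XLOC_023483 (chr2:101908658-101908816) had 1021 and 773 FPKM uninduced (limma adjusted p = 0.000435). It lies 7011 bp downstream of Commd9, which itself fell, from 47.6 and 29.8 FPKM to 15.7 and 15.95 FPKM (log2 change -1.20, limma adjusted p = 0.0349). XLOC_019175, 5155 bp upstream of the pseudogene Gm8731 and downstream of the ribosomal protein gene Rps14, had 582 and 700 FPKM uninduced. XLOC_028543, XLOC_041099 and XLOC_043248 had uninduced values between 169 and 314 FPKM; the first lies upstream of Oprd1, the delta opioid receptor gene, the next upstream of Pllp, and the last upstream of Morf4l1. XLOC_012047, 372 bp downstream of Mss51, had 525 and 82.8 FPKM uninduced, and XLOC_032134 had 259 and 66.7 FPKM. All 8 span 153 to 176 bp.

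Falls also occurred at loci above 0 in every sample, and these examples were chosen after their values were seen. XLOC_026298 (chr3:58702308-58702486), upstream of the ubiquitin ligase gene Siah2, went from 626 and 1248 FPKM to 49.0 and 37.7 FPKM (log2 change -4.33, SE 0.38, limma adjusted p = 0.0100). XLOC_009730 (chr12:80944710-80945002), 501 bp upstream of the splicing factor gene Srsf5 and overlapping an exon of the noncoding Gm20337, went from 43.3 and 57.6 FPKM to 4.6 and 1.30 FPKM (log2 change -3.83, SE 0.46, limma adjusted p = 0.0130). XLOC_028649 (chr4:137398603-137398795), downstream of Cela3a, went from 317 and 309 FPKM to 39.9 and 11.9 FPKM (log2 change -3.77, SE 0.55, limma adjusted p = 0.0164). The groups did not overlap in any of the 3.

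Loci whose single 0 stands beside 3 values of at least 5 FPKM may be failed estimates and are described apart. There were 63 among the members, and 68 (0.528%) among all loci tested. The 0 stood in uninduced 1 in 4 of them, in induced 1 in 32 and in induced 2 in 27. They were the shorter loci, with a median span of 183 bp. Of the 63, 4 (6.35%) were called lower and 0 higher, beside 14.7% and 11.5% of all loci tested. The counts over all members include them. Without them, 270 of 927 members were lower and 74 higher, with a median log2 change of -0.84 against -0.96 over all members. XLOC_011128 (chr13:15118521-15118794), which overlaps the pseudogene Gm9512 of the elongation factor gene Eef1a1, was at 6939, 5450 and 13330 FPKM in uninduced 2, induced 1 and induced 2 and listed at 0 in uninduced 1. XLOC_028691 (chr4:140691717-140691873) was at 1182 and 1637 FPKM uninduced and 792 FPKM in induced 2. XLOC_005575 (chr11:32201089-32201255) lies 809 bp upstream of the interleukin-9 receptor gene Il9r and 82255 bp from the globin gene Hba-a1. It was at 785 and 673 FPKM uninduced and 91.5 FPKM in induced 1. XLOC_014332 (chr15:98534608-98534781), 343 bp upstream of Kansl2, was at 545 and 671 FPKM uninduced and 122 FPKM in induced 1. In the remaining 4 named loci, XLOC_032776, XLOC_039380, XLOC_011606 and XLOC_009642, the induced value above 0 was 97.4, 46.1, 255 and 448 FPKM, against uninduced values of 424 to 1315 FPKM. In XLOC_009642 alone of these the induced value lay between the uninduced ones.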

How the data were processed

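RNA of 2 uninduced and 2 DMSO-induced samples was measured. The authors deposited 1 table of FPKM per locus; per the submitters' processing notes, reads were aligned with TopHat2 to GRCm38, and the program that assembled and quantified the loci is not given in these sources. The table holds no counts, so depth is unknown and no count model was used. Locus starts count from 0 in the table and are given here from 1: among 39486 loci matched by symbol to GENCODE M21, the start plus 1 was the GENCODE start in 58.9%. Samples were mapped by column name, and 0 columns were left unused.

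The change was the difference of group means of log2(FPKM + 1), tested with limma 3.58.1 in R 4.3.3 (trend, group as the only term) over the 12890 loci that reached 1 FPKM in 2 or more samples, and p-values were adjusted over all of them by the Benjamini-Hochberg method. Results therefore compare these libraries on a scale that understates the change of low loci. The fit was tested on simulated data, drawn with normal noise of the spread that the fit itself estimated. Those data held no failed estimates and no stepwise values, so they do not test the calls at such loci. Shares were compared by an exact permutation test (scipy 1.17.1). Sequences came from GENCODE M21 transcripts and RefSeq windows from 250 bases before to 50 after a gene start (GRCm38.p6), and copies were found with BLAST+ 2.17.0 at 90% identity over 80% of the piece.

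The members and the lists were chosen with earlier results of these data known. Named loci are the 8 largest rises and 8 largest falls among members past the threshold, with groups apart, a mean of at least 5 FPKM and no possible failed estimate, the 6 most abundant, the 8 possible failed estimates with the highest remaining values, and their overlapping or nearest gene. Other loci were chosen by their position class, or after their values were seen where so stated.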

Additional observations from a re-analysis of the deposited data

How the results depend on the processing

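The counts of called short loci depended on the samples and the filter. Leaving out each sample in turn gave 14 to 126 members lower, 0 to 21 higher, and a median log2 change of -1.27 to -0.72; the lone sample of a group is then assumed to vary like the others. For the tRNA loci, leaving out a sample gave 0 to 1 higher and a median of 0.038 to 0.77. With no filter on low values, 15 members were lower and 1 higher, and 0 tRNA loci were higher; over all loci 30 were then called, against 3377. With loci listed at 0 in any sample left out, the median was -0.60 and 7 tRNA loci were higher. Under 200 bp, 80 members were lower and 14 higher, with a median of -1.24. The share of summed FPKM changed by 0.28 percentage points, by -4.10 points without globins and the 10 most abundant loci, and by -4.24 points without the 10 most abundant loci of each sample. The cause of these differences was not tested, beyond the fewer samples and loci each uses. The median of the members stayed below 0 and that of the tRNA loci above 0 under quantile and median-of-ratios scaling, with totals that exclude globins and abundant loci, with 5 FPKM as the minimum, and with a pseudocount of 0.1; 0 tRNA loci were lower under any alternative run. Of the 30 named loci 16 were called; 5 to 8 of those calls were lost on leaving out 1 sample, 9 with no filter and 2 with a pseudocount of 0.1, and none reversed. Of the 14 not called, 4 passed with a replicate block, 5 without induced replicate 1, 4 without induced replicate 2 and 1, XLOC_007023, with loci listed at 0 left out.

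A replicate block, which pairs samples by number, gave 374 members lower and 107 higher and 5 tRNA loci higher. Over all 12890 loci tested the block gave 2299 lower and 1939 higher. The labels do not say that a number marks a shared culture; the deviations of uninduced 1 and induced 1 from their group means correlated at 0.17 across 12890 loci.

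Levels at spans near 150 bp move in large steps, and the depth behind them is unknown.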

Other observations

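Within 100 kb of the erythroid markers, 4 members were found. XLOC_044862, near Alas2, which encodes the erythroid enzyme that starts heme synthesis, went from 0.80 and 0.25 FPKM uninduced to 1.8 and 3.44 FPKM induced and was called higher (log2 change 1.23, SE 0.33, limma adjusted p = 0.0494); it met the level filter through the induced samples alone, so it could only differ upward. XLOC_046181, also near Alas2, had 28.4 and 65.8 FPKM uninduced and 22.4 and 7.95 FPKM induced. XLOC_021796, 45176 bp from Epb42, which encodes a red cell membrane protein, had 85.2 and 114 FPKM uninduced and 79.6 and 77.7 FPKM induced. In these last loci both induced values lay below both uninduced ones, but neither was called. The remaining locus, XLOC_005575 near Hba-a1, is among the possible failed estimates.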
